A study of Mus musculus with 36 samples.

Results

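The 32 genes described here encode the machinery of autophagy and of its mitochondrial form, mitophagy. They were listed by name, with earlier results of these data known, and all 32 were found among the 21968 genes of the counts table. Single mouse oocytes at the germinal vesicle stage, that is, fully grown and arrested in meiotic prophase, had been sequenced one per library. Of the 36 oocytes, 18 carry the label Drp1_KO and come from 4 mice, named a to d, and 18 carry the label Drp1_WT and come from 5 mice, numbered 1 to 5, with 3 to 5 oocytes per mouse. Drp1, encoded by Dnm1l, is a GTPase of the dynamin family that cuts mitochondria in the course of their division. The series title speaks of depletion in the oocyte. The sources used here do not give the allele, the promoter behind any deletion, the strain or the age of the mice. No treatment is named for either label.

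In autophagy, a membrane grows around cytoplasm, closes into an autophagosome and fuses with a lysosome. The ULK1 kinase complex starts the process, a lipid kinase complex marks the site, and 2 ubiquitin-like conjugation systems attach Atg8-family proteins to the membrane. Receptors that bind Atg8 proteins bring in cargo. Mitochondria are tagged either by ubiquitin, downstream of the kinase PINK1, or by receptors that sit in the outer mitochondrial membrane. Division by DRP1 is widely held to make pieces of mitochondria small enough to be engulfed. Transcript counts measure none of these activities, and germinal vesicle oocytes are transcriptionally quiet and hold a stored mRNA pool.

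Promoter sequence is shown for the members whose window holds the extended E-box TCACGTG, because this is the core of the element that TFEB, the regulator of lysosomal and autophagy genes among the members, is known to bind. Windows of 250 bases before to 50 bases after a gene's start (RefSeq, GRCm38.p6) were found for 24 members, and 8 had none. TCACGTG occurred on either strand in 4 of these 24 windows and in 4.29% of the windows of 27025 genes. The E-box core CACGTG, which every TCACGTG contains, occurred in 6 of 24 member windows (Atg7, Bnip3, Lamp1, Atg5, Rubcn and Atg3) and in 8.09% of all windows. The 4 windows are given 5′ to 3′ on the gene's strand, with each TCACGTG, or CACGTGA where the match is on the other strand, in capitals. The Lamp1 window is chr8:13158911-13159210 on the plus strand, that of Atg3 is chr16:45158579-45158878 on the plus strand, that of Rubcn is chr16:32868317-32868616 on the minus strand and that of Atg7 is chr6:114670846-114671145 on the plus strand. The Rubcn and Atg7 windows lie inside the span that GENCODE M21 gives these genes, so they belong to a start downstream of its outermost one.
Lamp1: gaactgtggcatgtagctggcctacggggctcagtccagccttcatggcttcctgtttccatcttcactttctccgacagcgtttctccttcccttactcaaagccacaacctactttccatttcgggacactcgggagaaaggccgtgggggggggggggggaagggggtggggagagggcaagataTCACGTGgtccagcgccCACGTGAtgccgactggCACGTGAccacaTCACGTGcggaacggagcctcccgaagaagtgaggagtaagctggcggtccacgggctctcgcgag
Atg3: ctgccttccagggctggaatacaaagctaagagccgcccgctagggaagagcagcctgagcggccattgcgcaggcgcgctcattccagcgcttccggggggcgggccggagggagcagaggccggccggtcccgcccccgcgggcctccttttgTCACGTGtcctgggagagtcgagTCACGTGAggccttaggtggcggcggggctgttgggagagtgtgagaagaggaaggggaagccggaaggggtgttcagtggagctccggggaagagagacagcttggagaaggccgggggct
Rubcn: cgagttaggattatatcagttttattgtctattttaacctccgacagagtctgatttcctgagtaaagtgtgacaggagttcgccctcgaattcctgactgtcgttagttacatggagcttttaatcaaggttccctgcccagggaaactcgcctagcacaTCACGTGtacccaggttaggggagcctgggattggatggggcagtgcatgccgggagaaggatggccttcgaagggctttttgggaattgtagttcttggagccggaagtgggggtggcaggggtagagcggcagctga
Atg7: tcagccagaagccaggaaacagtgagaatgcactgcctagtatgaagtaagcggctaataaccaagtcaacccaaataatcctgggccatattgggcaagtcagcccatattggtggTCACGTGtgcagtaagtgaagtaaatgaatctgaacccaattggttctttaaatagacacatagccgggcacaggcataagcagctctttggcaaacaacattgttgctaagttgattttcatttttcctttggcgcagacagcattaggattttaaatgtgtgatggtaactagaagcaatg
Lamp1 held 4 matches, beginning 62, 45, 28 and 16 bases before the start. Atg3 held 3, at 95, 72 and 71 bases before the start, and the last pair overlaps as TCACGTGA, which reads as a match on both strands. Rubcn held 1 match 89 bases and Atg7 1 match 133 bases before the start. These are letter matches and not measured binding sites. In CPM (counts scaled to the size of the library) per kilobase of exon, averaged over the 9 mice, Lamp1 was at 89.4, Rubcn at 17.2, Atg3 at 8.03 and Atg7 at 2.74.

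Totals ran from 3178509 to 7406895 counts per oocyte. Dnm1l, which checks the labels, had 217, 220.1, 207 and 185 CPM in mice a to d labelled Drp1_KO, and 292, 280.1, 203, 133 and 286 CPM in mice 1 to 5 labelled Drp1_WT. Its log2 fold change was -0.21 (SE 0.194; edgeR, adjusted p = 0.706), so the transcript of the targeted gene did not separate the labels. Among single oocytes of the Drp1_KO label it lay at 274 CPM in tube 10 of mouse b, described below, and at 144 to 251 CPM in the others. It lay at 116 to 156 CPM in the 5 libraries of Drp1_WT tubes 11 to 15 (all of mouse 4 and 2 of mouse 3). Drp1_WT tube 29 was at 234 CPM. The other 12 Drp1_WT libraries were at 254 to 322 CPM, above every Drp1_KO library except tube 10. Mfhas1, a gene that separated most libraries by label, was at 19.4 to 39 CPM in the Drp1_KO label, at 20.8 CPM in Drp1_WT tube 29, at 1.27 to 3.88 CPM in Drp1_WT tubes 11 to 15 and at 1.08 to 5.47 CPM in the other 12. By this gene tube 29 went against its label and tubes 11 to 15 did not. Mfhas1 was added after its values in these data were seen, so it is no independent check of the labels. Whether the deleted part of Dnm1l would remove its counts is not known here. The groups are therefore called mice labelled Drp1_KO and mice labelled Drp1_WT throughout. One further library, tube 10 of mouse b in the Drp1_KO label, stood apart from the other 35: its 12 oocyte markers summed to 4396 CPM, against 20420 to 34084 CPM elsewhere. Its 12 immune markers summed to 821 CPM, against 11.5 to 118 CPM in the other 35 libraries. For several members the value without some of these libraries is given beside the result.

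Levels per kilobase of annotated exon allow a rough comparison of genes. By that measure the 29 members with enough counts to be tested spanned more than 2 orders of magnitude. Atg5, whose product joins ATG12 in the conjugate that drives Atg8 lipidation, stood far above the rest with a mean of 279 CPM per kilobase over the 9 mice, higher than 98.5% of the 12812 genes tested. Lamp1, a main glycoprotein of the lysosomal membrane, followed at 89.4 CPM per kilobase, and Bnip3l, an outer-membrane mitophagy receptor, at 53 CPM per kilobase. Atg12 at 28.4 and Optn at 25.2 CPM per kilobase came next. Among these 5 the mouse ranges did not overlap between Atg5 (254 to 305 CPM per kilobase), Lamp1 (64.5 to 113) and Bnip3l (44.7 to 60), or between Bnip3l and Atg12 (24.6 to 31.8). Atg12 and Optn (21.3 to 27.6) overlapped, as did Optn and Map1lc3a (17.9 to 30.4) below it. At the low end, Ulk2 averaged 0.542, Atg9a 0.614, Wipi1 0.771 and Pink1 0.876 CPM per kilobase, and their mouse ranges overlapped.

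**Figure D1:**
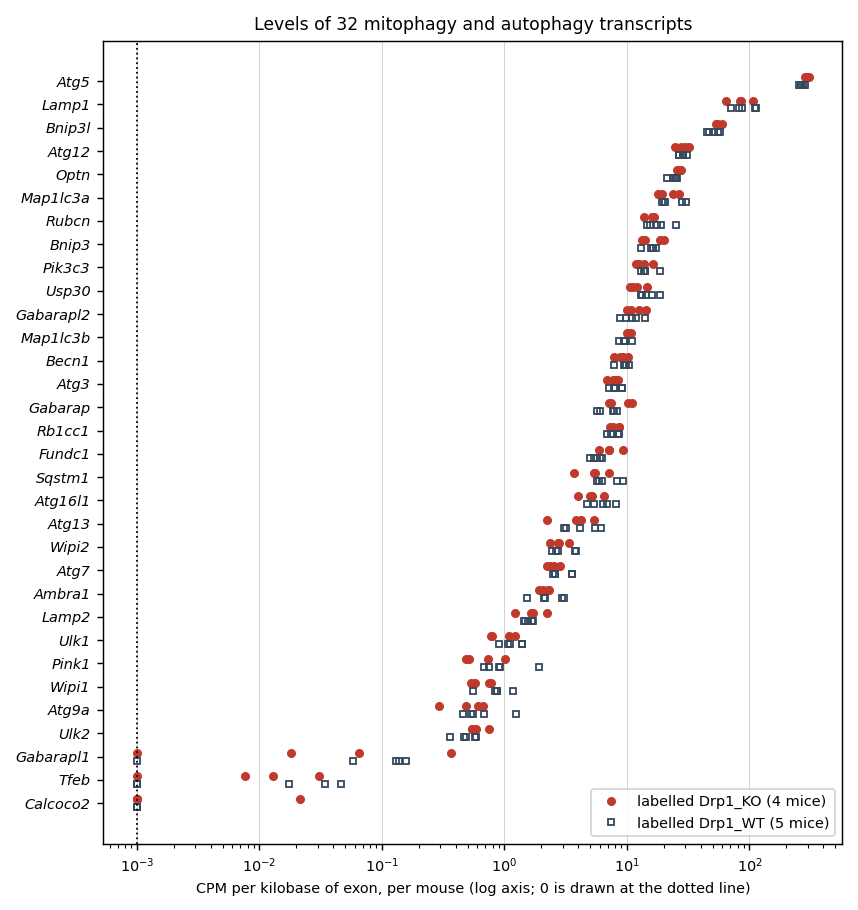
Level of each of the 32 members in CPM per kilobase of exon (log axis), 1 point per mouse, filled circles for the 4 mice labelled Drp1_KO and open squares for the 5 mice labelled Drp1_WT; values of 0 are drawn at the dotted line. Atg5 averaged 279 and Lamp1 89.4 CPM per kilobase at the top, Gabarapl1, Tfeb and Calcoco2 lay near 0 at the bottom, and the symbols of the labels lie on top of each other for most members.

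Between the labels, 0 of the 29 tested members passed an adjusted p of 0.05 (edgeR quasi-likelihood test on counts summed per mouse, 4 against 5 mice, Benjamini-Hochberg over all tested genes), against 2 of 12812 genes, or 0.0156%. At an unadjusted edgeR p of 0.05 there were 2 members, Fundc1 with the higher and Usp30 with the lower level in mice labelled Drp1_KO, which is 6.9% of the 29 against 9.69% of all tested genes. Members higher in the Drp1_KO label numbered 1 of 29 (3.45%), against 4.89% of all genes, and members lower there 1 of 29 (3.45%), against 4.81%. DESeq2 called 0 members and 43 genes in all (0.336%), with 2 members at an unadjusted p of 0.05 (6.9%, against 11% of all genes). limma-voom on single oocytes with mouse as a random effect called 0 members and 10 genes in all (0.0781%), with 2 members at an unadjusted p of 0.05 (Usp30 and Atg5; 6.9%, against 9.9%). By these counts the members did not stand out from the background. The median log2 fold change of the 29 members was -0.11, against -0.0032 over all tested genes, and 18 of 29 (62.1%) were below 0, against 50.6% of all genes. That median moved to -0.02 without mouse 1, -0.03 without mouse d and -0.03 without Drp1_WT tubes 11 to 15, and it stayed below 0 in the 24 alternatives run.

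**Figure D2:**
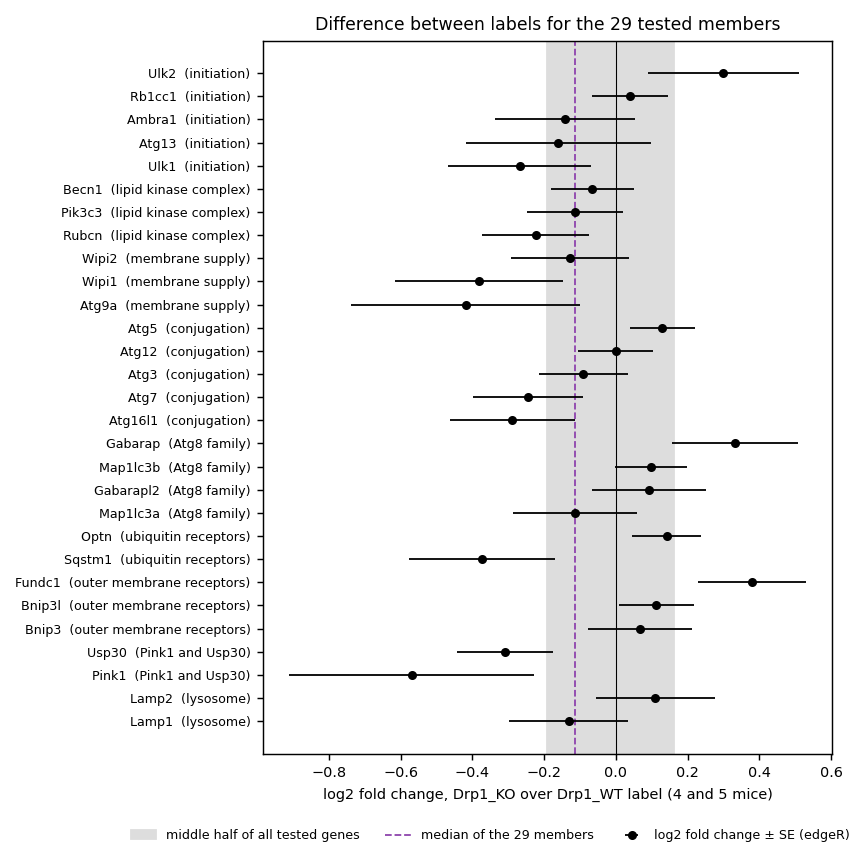
log2 fold change of mice labelled Drp1_KO over mice labelled Drp1_WT for the 29 tested members, grouped by role, with bars of 1 SE from edgeR (4 and 5 mice); the grey band spans the middle 50% of all tested genes and the dashed line is the members' median of -0.11. Fundc1 lies highest at 0.38 and Pink1 lowest at -0.57.

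The genes that start autophagy showed no shift shared by all 5. Rb1cc1 encodes FIP200, the scaffold of the ULK complex, and was the most abundant of them in CPM. It had 114, 126, 106 and 125 CPM in mice labelled Drp1_KO, against 126, 124, 109, 114 and 101 CPM in mice labelled Drp1_WT. The ranges overlapped almost wholly, and the log2 fold change was 0.04 (SE 0.106; edgeR, adjusted p = 0.905). Atg13, the adaptor that links ULK1 to FIP200, varied far more between mice, with a ratio of 2.75 between the highest and the lowest mouse. It had 18.4, 16.7, 23.7 and 9.74 CPM in mice labelled Drp1_KO, against 26.8, 13.9, 18.2, 23.7 and 13.4 CPM in mice labelled Drp1_WT. Mouse d was the lowest of all 9 and mouse 1 the highest, and the log2 fold change was -0.16 (SE 0.258; edgeR, adjusted p = 0.828), or -0.02 (SE 0.271) without Drp1_WT tubes 11 to 15. The kinase genes were low: Ulk1 ran from 5.02 to 7.89 CPM in mice labelled Drp1_KO and from 5.84 to 9.02 CPM in mice labelled Drp1_WT. Ulk2 ran from 3.23 to 4.49 CPM in the Drp1_KO label and from 2.14 to 3.48 CPM in the Drp1_WT label. Ambra1, whose product binds Beclin 1 and acts as a ubiquitin ligase substrate receptor, ran from 11.6 to 14.2 CPM in the Drp1_KO label and from 9.38 to 18.8 CPM in the Drp1_WT label. The 5 log2 fold changes lay between -0.27 (Ulk1, SE 0.2) and 0.30 (Ulk2, SE 0.211). Without Drp1_WT tubes 11 to 15 that of Ulk1 was -0.04 (SE 0.254) and that of Ulk2 0.50 (SE 0.267).

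The ranges of the 3 lipid kinase genes overlapped between the labels. Rubcn encodes Rubicon, which binds the Beclin 1 and VPS34 complex and restrains autophagosome maturation. It had 121, 121, 124 and 103 CPM in mice labelled Drp1_KO, against 187, 132, 115, 142 and 109 CPM in mice labelled Drp1_WT. Mouse 1 alone lay far above the others, and the log2 fold change was -0.22 (SE 0.149; edgeR, adjusted p = 0.602). Becn1, which encodes the Beclin 1 subunit, ran from 55.5 to 71.8 CPM in the Drp1_KO label and from 55.8 to 73.1 CPM in the Drp1_WT label. Pik3c3, which encodes the catalytic subunit VPS34, ran from 53.3 to 72.9 CPM in the Drp1_KO label and from 58.2 to 82.5 CPM in the Drp1_WT label. Exons of Cntd1 on the other strand overlap 43.9% of the exon bases of Becn1, and the library kits keep no strand, so Becn1 reads in that stretch cannot be assigned.

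The 3 genes for membrane supply had negative fold changes, none of which passed the test. Atg9a encodes the transmembrane lipid scramblase carried on the vesicles that seed the autophagosome. It had 3.53, 2.82, 3.82 and 1.67 CPM in mice labelled Drp1_KO, against 7.14, 3.91, 3.19, 3.09 and 2.66 CPM in mice labelled Drp1_WT. Its ratio of 4.27 between the highest mouse (1) and the lowest (d) exceeded that of every other tested member. The log2 fold change was -0.42 (SE 0.32; edgeR, adjusted p = 0.637). Atg9a was at 0 counts in tube 10 of mouse b, which allows up to 0.613 CPM (3 counts in that library, counting error only), and other genes overlap 32.6% of its exon bases. Wipi2, which encodes the reader of phosphatidylinositol 3-phosphate that recruits ATG16L1, had 28.9, 29.4, 35.5 and 24.8 CPM in mice labelled Drp1_KO, against 39.7, 28.9, 27.7, 40.1 and 25.7 CPM in mice labelled Drp1_WT. Mice 1 and 4 were the highest, and the log2 fold change was -0.13 (SE 0.165; edgeR, adjusted p = 0.778), with a value of 0.01 without Drp1_WT tubes 11 to 15. Wipi1, a relative of Wipi2, ran from 2.36 to 3.41 CPM in the Drp1_KO label and from 2.46 to 5.14 CPM in the Drp1_WT label, a log2 fold change of -0.38 (SE 0.234). Without Drp1_WT tubes 11 to 15 it was -0.55 (SE 0.227; edgeR, unadjusted p = 0.0308), and without tube 10 of mouse b and Drp1_WT tubes 11 to 15 and 29 it was -0.59 (SE 0.22; edgeR, unadjusted p = 0.0198). In both of these settings Wipi1, not Usp30, was the member under an unadjusted p of 0.05.

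Of the conjugation genes, Atg5 and Atg12 were the most abundant and the steadiest across mice. Atg5 had 717, 684, 669 and 683 CPM in mice labelled Drp1_KO, against 638, 598, 615, 624 and 672 CPM in mice labelled Drp1_WT. The 4 mice of the Drp1_KO label averaged 688 ± 20.4 CPM and the 5 of the Drp1_WT label 629 ± 28.1 CPM (SD), with mouse 5 inside the Drp1_KO range. The ratio of highest to lowest mouse was 1.2, and the log2 fold change was 0.13 (SE 0.0903; edgeR, adjusted p = 0.61). Atg12, which encodes the ubiquitin-like partner of ATG5, had 245, 213, 228 and 189 CPM in mice labelled Drp1_KO, against 220.4, 206, 221, 206 and 241 CPM in mice labelled Drp1_WT. The means were 219 ± 23.6 CPM in the Drp1_KO label and 219 ± 14.1 CPM in the Drp1_WT label (SD), with a log2 fold change of -0.00093 (SE 0.104; edgeR, adjusted p = 0.998). Atg16l1 encodes the protein that places the ATG5 and ATG12 conjugate on the membrane. It had 49.6, 48.5, 62.9 and 38.0 CPM in mice labelled Drp1_KO, against 79.1, 51.9, 61.2, 66.2 and 45.9 CPM in mice labelled Drp1_WT. The ranges overlapped, with mouse d lowest and mouse 1 highest, and the log2 fold change was -0.29 (SE 0.174; edgeR, adjusted p = 0.567). It was -0.09 without tube 10 of mouse b and Drp1_WT tubes 11 to 15 and 29. Atg7, the E1-like activating enzyme, ran from 15.5 to 19.9 CPM in the Drp1_KO label and from 17.3 to 24.7 CPM in the Drp1_WT label. Atg3, the E2-like enzyme that hands Atg8 proteins to lipid, ran from 21.8 to 26.8 CPM in the Drp1_KO label and from 22.5 to 28.9 CPM in the Drp1_WT label.

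The Atg8 family, the proteins joined to the autophagosome membrane, was represented by 4 transcripts and by Gabarapl1, which was near 0. In CPM, Map1lc3b (LC3B) was the most abundant, with 76.8, 80.4, 78.0 and 74.6 CPM in mice labelled Drp1_KO, against 71.1, 64.3, 72.9, 71.4 and 82.1 CPM in mice labelled Drp1_WT. Mouse 5 lay above all other mice and the remaining Drp1_WT mice below the Drp1_KO mice, and the log2 fold change was 0.10 (SE 0.101; edgeR, adjusted p = 0.731). Gabarap had 13.2, 20.3, 13.7 and 18.8 CPM in mice labelled Drp1_KO, against 11.1, 14.1, 14.5, 10.5 and 15.2 CPM in mice labelled Drp1_WT. Mice b and d lay above every other mouse while a and c lay within the Drp1_WT range, and the log2 fold change was 0.33 (SE 0.176; edgeR, adjusted p = 0.536). Without tube 10 of mouse b and Drp1_WT tubes 11 to 15 and 29 it was 0.11 (SE 0.186). Map1lc3a (LC3A) ran from 21.2 to 31.2 CPM in the Drp1_KO label and from 22.6 to 35.9 CPM in the Drp1_WT label. Gabarapl2 (GATE-16) ran from 23.2 to 33.1 CPM in the Drp1_KO label and from 20.4 to 32.9 CPM in the Drp1_WT label.

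Per kilobase of exon the order within the family was different, since the annotated exons sum to 7.52 kilobases for Map1lc3b and 1.18 for Map1lc3a. Which isoforms the oocytes hold was not determined, so this order depends on the annotated lengths. The 5 transcripts summed to 53.1 ± 1.12 CPM per kilobase in mice labelled Drp1_KO (SD, n = 4) and 51.6 ± 5.36 CPM per kilobase in mice labelled Drp1_WT (SD, n = 5). Map1lc3a took the greatest share of that sum, 41.1% ± 7.26 in the Drp1_KO label and 45.6% ± 6.66 in the Drp1_WT label. Gabarapl2 took 22.4% ± 3.8 in the Drp1_KO label and 21.6% ± 3.27 in the Drp1_WT label. Map1lc3b took 19.4% ± 0.404 in the Drp1_KO label and 18.8% ± 2.7 in the Drp1_WT label. Gabarap took 16.9% ± 3.65 in the Drp1_KO label and 13.8% ± 2.04 in the Drp1_WT label. Each of these differences in share was smaller than the larger of the SDs beside it. Gabarapl1 had 25 counts in all oocytes of the Drp1_KO label, of which 18 came from tube 10 of mouse b, and 22 counts in those of the Drp1_WT label, so it was not tested.

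Among receptors that bind ubiquitin on cargo, Optn was abundant, Sqstm1 was moderate and Calcoco2 was nearly undetected. Optn encodes optineurin, a receptor of ubiquitin-tagged mitochondria. It had 97.3, 96.4, 104 and 102 CPM in mice labelled Drp1_KO, against 94.9, 80.1, 95.4, 89.9 and 92.0 CPM in mice labelled Drp1_WT. The lowest of the Drp1_KO mice stood about 1 CPM over the highest of the Drp1_WT mice, and such a gap held for 1 of 29 members (3.45%) and for 1.27% of all tested genes. Its log2 fold change was 0.14 (SE 0.0959; edgeR, adjusted p = 0.606) and turned to -0.04 with limma-voom and -0.05 with limma-trend, which weigh oocytes rather than their sums. Without scaling factors it was 0.06. By each oocyte's own total, the median was 91.1 CPM in the Drp1_KO label and 92.7 CPM in the Drp1_WT label. Tube 10 of mouse b had 6.33 CPM of Optn, against a median of 91.9 CPM in the other 17 Drp1_KO oocytes. With that library left out, Optn averaged 103 ± 4.05 CPM in the Drp1_KO label and 91.1 ± 6.25 CPM in the Drp1_WT label, the labels still did not overlap, and the log2 fold change was 0.18 (SE 0.0908).

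Sqstm1 encodes p62, the receptor that is itself degraded with its cargo. It had 18.5, 18.2, 24.1 and 12.4 CPM in mice labelled Drp1_KO, against 31.4, 20.9, 19.7, 27.9 and 19.0 CPM in mice labelled Drp1_WT. Mouse c lay within the Drp1_WT range and the other 3 Drp1_KO mice below it, and the log2 fold change was -0.37 (SE 0.203; edgeR, adjusted p = 0.544). It was -0.23 (SE 0.238) without Drp1_WT tubes 11 to 15. Exons of Mrnip on the other strand overlap 17.3% of those of Sqstm1. Calcoco2, which encodes NDP52, had 1 count in 1 Drp1_KO oocyte and 0 counts in the 18 Drp1_WT oocytes, which allows up to 0.0275 CPM there (3 counts over those libraries, counting error only).

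None of the 3 receptors of the outer mitochondrial membrane passed the adjusted threshold. Their log2 fold changes were above 0 with all libraries, and for Bnip3l and Bnip3 they lay near 0 or below it under some alternatives. Bnip3l encodes NIX, the receptor known for clearing mitochondria from maturing red blood cells. It had 208, 209, 205 and 231 CPM in mice labelled Drp1_KO, against 182, 222, 198, 172 and 213 CPM in mice labelled Drp1_WT. Mouse d was highest and mice 2 and 5 lay above the other Drp1_KO mice, and the log2 fold change was 0.11 (SE 0.104; edgeR, adjusted p = 0.702). It was 0.01 (SE 0.122) without Drp1_WT tubes 11 to 15 and 0.0047 (SE 0.0944) with the GC offset described further on. Bnip3, its hypoxia-inducible relative, ran from 30.3 to 45.4 CPM in the Drp1_KO label and from 29.5 to 39.0 CPM in the Drp1_WT label, and exons of another gene on the other strand overlap 22.3% of its exon bases. The Bnip3 log2 fold change was 0.07 (SE 0.144) and was below 0 in 4 of 24 alternatives, at the lowest -0.05 with the GC offset and -0.03 without scaling factors.

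Fundc1 (chromosome X, 17556564 to 17572325, minus strand, GRCm38) encodes a hypoxia-responsive mitophagy receptor that also binds DRP1. It had 16.7, 22, 14 and 16.7 CPM in mice labelled Drp1_KO, against 11.8, 14.8, 12.6, 13.3 and 14.1 CPM in mice labelled Drp1_WT. Mouse c overlapped the Drp1_WT range and mouse b stood highest. Means were 17.3 ± 3.33 CPM in the Drp1_KO label and 13.3 ± 1.18 CPM in the Drp1_WT label (SD), with a log2 fold change of 0.38 (SE 0.15; edgeR, unadjusted p = 0.025, adjusted p = 0.499), the highest of the members with all libraries. In tube 10 of mouse b Fundc1 was at 55 CPM, 3.56-fold over the median of 15.4 CPM in the other 17 Drp1_KO oocytes. Without that library mouse b had 14.3 CPM. The averages were then 15.5 ± 1.49 CPM in the Drp1_KO label and 13.4 ± 1.19 CPM in the Drp1_WT label (SD), and the log2 fold change was 0.21 (SE 0.128; edgeR, unadjusted p = 0.133), below that of Ulk2 at 0.32 and Gabarap at 0.27. Within tubes 1 to 15, which leave out mouse d and mouse 5 and keep tube 10, it was 0.42 (SE 0.175).

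Pink1 and Usp30 act on opposite sides of ubiquitin-tagged mitophagy: PINK1 phosphorylates ubiquitin on damaged mitochondria, and USP30 is the outer-membrane deubiquitinase that removes the tag. Both had lower mean levels in mice labelled Drp1_KO, and neither passed the adjusted threshold. Usp30 (chromosome 5, 114065461 to 114124720, plus strand, GRCm38) had 73.1, 68.5, 87.9 and 64.8 CPM in mice labelled Drp1_KO, against 113, 87.5, 80.6, 96.2 and 79.0 CPM in mice labelled Drp1_WT. Mouse c overlapped the Drp1_WT range and the other 3 Drp1_KO mice lay below it. Averages were 73.6 ± 10.1 CPM in the Drp1_KO label and 91.2 ± 13.8 CPM in the Drp1_WT label (SD), with a log2 fold change of -0.31 (SE 0.134; edgeR, unadjusted p = 0.038, adjusted p = 0.508). Left without tube 10 of mouse b it was -0.28 (SE 0.129; edgeR, unadjusted p = 0.0458), without Drp1_WT tubes 11 to 15 it was -0.22 (SE 0.173; edgeR, unadjusted p = 0.235) and without both and tube 29 it was -0.18 (SE 0.169). Exons of Svop and Alkbh2 on the other strand overlap 8.08% of its exon bases.

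Pink1 was scarce in every mouse, at 1.31, 1.95, 2.68 and 1.38 CPM in mice labelled Drp1_KO, against 5.09, 2.41, 1.81, 1.99 and 2.46 CPM in mice labelled Drp1_WT. Mouse 1 stood more than 2 CPM above every other mouse and the remaining mice overlapped. The log2 fold change of -0.57 was the lowest of the members, with the widest error (SE 0.342; edgeR, adjusted p = 0.567).

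**Figure D3:**
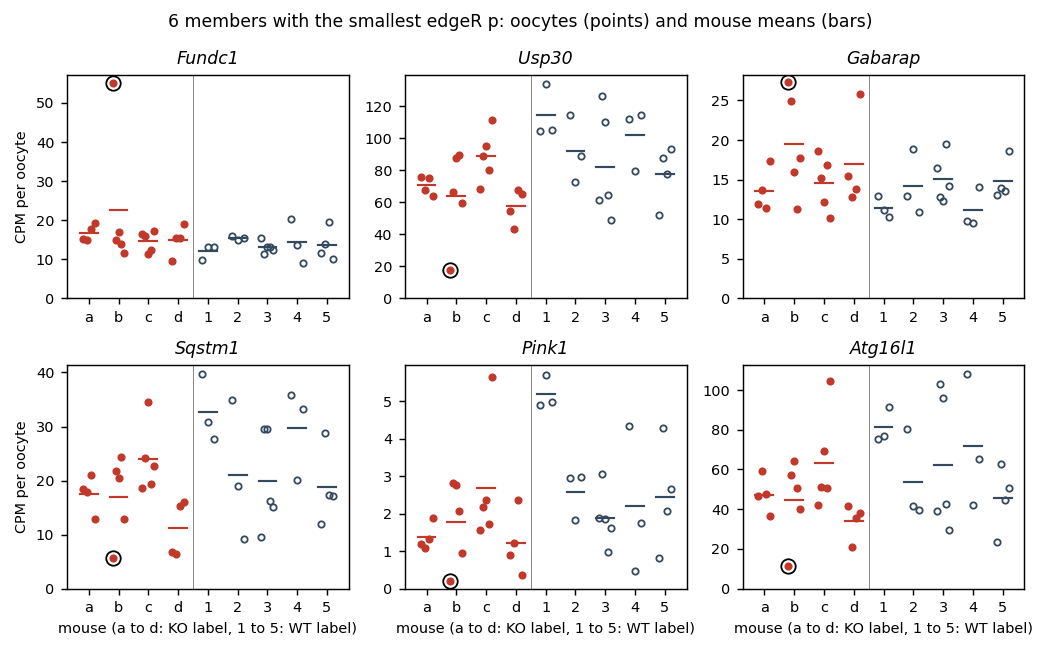
Levels in single oocytes (points, CPM of each oocyte's own total) and mouse means (bars) of the 6 members with the smallest edgeR p, for mice a to d labelled Drp1_KO on the left and mice 1 to 5 labelled Drp1_WT on the right of each panel; a ring marks tube 10 of mouse b. Fundc1 lies at 55 CPM in the ringed oocyte, against a median of 15.4 CPM in the other 17 Drp1_KO oocytes. The oocytes of the labels overlap in every panel.

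On the lysosomal side, Lamp1 was abundant, Lamp2 was moderate and Tfeb was nearly undetected. Lamp1 had 229, 224, 284 and 172 CPM in mice labelled Drp1_KO, against 303, 221, 232, 299 and 189 CPM in mice labelled Drp1_WT. Mice 1, 4 and c were high and mice d and 5 low, whatever the label, and the log2 fold change was -0.13 (SE 0.166; edgeR, adjusted p = 0.774). It was 0.01 without Drp1_WT tubes 11 to 15. Lamp2, whose product is needed for fusion and for chaperone-mediated autophagy, ran from 11.5 to 21.3 CPM in the Drp1_KO label and from 13.9 to 16.4 CPM in the Drp1_WT label. Tfeb had 8 counts in 4 of 18 Drp1_KO oocytes and 13 counts in 9 of 18 Drp1_WT oocytes, below the filter on low counts. Its relatives Tfe3 and Mitf were both counted: Mitf averaged 7.86 ± 2.13 CPM in the Drp1_KO label and 7.17 ± 1.35 CPM in the Drp1_WT label (SD).

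Across mice, 1 mouse of each label stood apart in the level of many members. The median deviation of the 29 tested members from their own mean over the 9 mice was -0.04, 0.01, 0.04 and -0.23 on the log2 scale in mice a to d, and 0.19, -0.02, -0.05, -0.02 and -0.04 in mice 1 to 5. Mouse d stood lowest and mouse 1 highest, while the other 7 mice lay between -0.05 and 0.04. Mouse d held the lowest level of 15 of 29 members (51.7%, against 21.1% of all tested genes), and mouse 1 the highest level of 13 of 29 (44.8%, against 22.7%). Over all tested genes the median deviation was -0.01 in mouse d and 0.01 in mouse 1.

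Base composition moved with this pattern in mice d and 1. Of the 29 members, 8 lay above the upper GC quartile of the tested genes (53.6% in the longest transcript): Sqstm1, Map1lc3a, Pink1, Ulk1, Usp30, Atg9a, Rubcn and Ambra1. All 8 had log2 fold changes below 0, with a median of -0.29, and the other 21 members had a median of 0.04 with 10 of 21 below 0. Over all tested genes above that quartile, 72.9% were below 0 with a median of -0.16, and below the lower quartile 28.6% were below 0 with a median of 0.12. All genes above the upper quartile deviated by -0.26 in mouse d and by 0.24 in mouse 1. In mouse 4 they deviated by 0.14, while the members' median there was -0.02. With each mouse's trend on GC taken out as an offset, an alternative added after seeing the data, the members' median log2 fold change was -0.08, 20 of 29 were below 0, and 0 members had an unadjusted edgeR p under 0.05. Usp30 was then at -0.19 (SE 0.107), Fundc1 at 0.21 (SE 0.133), Sqstm1 at -0.27 (SE 0.17) and Pink1 at -0.36 (SE 0.299). With that offset the members' median deviation went from -0.23 to -0.16 in mouse d and from 0.19 to 0.25 in mouse 1. It thus shrank in mouse d and grew in mouse 1. Transcripts of 80 cytosolic ribosomal proteins deviated in the opposite sense, by 0.46 in mouse d and by -0.32 in mouse 1, and also by -0.35 in mouse 4 and 0.30 in mouse 5. Their part in the pattern was not tested.

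**Figure D4:**
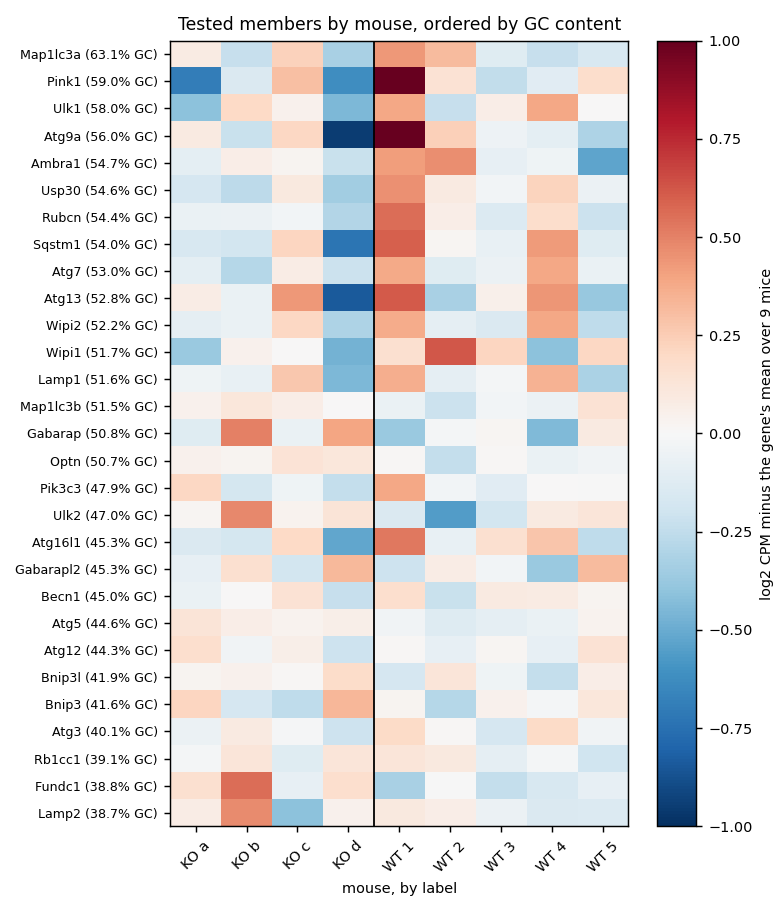
Deviation of each tested member from its mean over the 9 mice (log2 CPM, colour limited to 1 in either direction), with members ordered by GC content and mice labelled Drp1_KO left of the line and those labelled Drp1_WT right of it. Mouse d (median -0.23) is mostly blue and mouse 1 (median 0.19) mostly red in the GC-rich upper rows.

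Single oocytes of a mouse spread more widely than mouse means did for most members. Each mean averages 3 to 5 oocytes, which by itself narrows the spread of means. The comparison therefore does not show whether mice differed less than oocytes did. The SD of log2(CPM + 1) among oocytes of a mouse had a median of 0.428 over the 29 tested members, against 0.301 for the SD of mouse means, and was the larger of the 2 for 27 of 29 members. It was smallest for Atg5 (0.152) and greatest for Lamp1 (0.795). Without tube 10 of mouse b, which was left out after seeing the data, that of Lamp1 was 0.361, the greatest was that of Ulk1 (0.576) and the smallest that of Bnip3l (0.134). The median was then 0.336, against 0.228 for mouse means, and the spread within mice was the larger for 25 of 29 members. All 36 oocytes had counts for 28 of the 29 tested members, Atg9a being the exception.

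Tube 10 of mouse b accounted for many of the extremes. It held the lowest level among all 36 oocytes of 17 of 29 members, against 42.2% of all tested genes, and the highest level of 3 (Lamp2, Gabarap and Fundc1), against 14.4% of all genes. Lamp1 had 13.5 CPM there, 16.9-fold below the median of 229 CPM in the other 17 Drp1_KO oocytes. Pik3c3 had 5.72 CPM against a median of 65.7, Map1lc3a 2.45 against 27 and Atg13 1.84 against 18.6 CPM. Rb1cc1 had 119 CPM against a median of 113, and Becn1 61.3 against 60.5 CPM, so not every member was lower there. The granulosa marker sum was 165 CPM, against 84.1 to 160 CPM in the other 35 libraries, and the stromal marker sum 16.3 CPM, against 26.9 to 74.5 CPM. A few genes held most of the usual level of these lists. In Drp1_KO oocytes the medians were 70.9 CPM for Cyp19a1 and 31.1 CPM for Nr5a2 (granulosa). They were 36.3 CPM for Pecam1 (stromal) and 42.6 CPM for C1qb (immune). The same genes led their lists in the Drp1_WT label. Amh, Col1a1 and Ptprc had medians of 0 CPM in both labels. The usual sums therefore do not by themselves measure material from other cells. In tube 10 the immune sum had another make-up. Lyz2 had a median of 0 CPM in both labels and a highest oocyte value of 440 CPM. That value exceeds the immune sum of each of the other 35 libraries, so it belongs to tube 10. Other immune markers stayed low in every oocyte, with at most 1.23 CPM for Ptprc and 4.5 CPM for Csf1r. What part other cells had in these levels was not tested. Over mice, granulosa markers summed to between 116 and 130.5 CPM in the Drp1_KO label and between 107 and 138 CPM in the Drp1_WT label. Immune markers summed to between 41.1 and 203 CPM in the Drp1_KO label, with mouse b highest, and between 36.8 and 70.9 CPM in the Drp1_WT label. Tnfaip6, Ptx3, Cd14 and Cdh5 were at 0 in every oocyte.

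**Figure D5:**
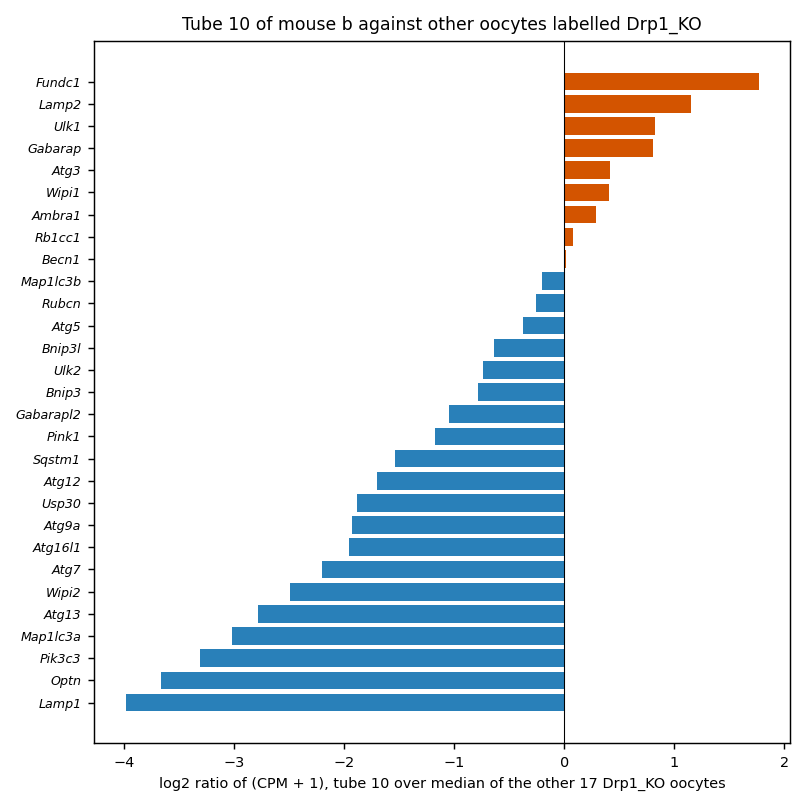
log2 ratio of CPM + 1 in tube 10 of mouse b over the median of the other 17 oocytes labelled Drp1_KO, for the 29 tested members. Fundc1 is at the top, at 55 CPM against a median of 15.4 CPM, and Lamp1 at the bottom, at 13.5 CPM against a median of 229 CPM.

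The rest of the pathway was read from a list of 93 further genes, of which 87 were tested. Of these, 0 passed the adjusted threshold, 5 had an unadjusted edgeR p under 0.05 (5.75%, against 9.69% of all tested genes), and all 5 had the lower mean in mice labelled Drp1_KO (5.75%, against 4.81% of all genes in that direction). In the other direction, limma-voom gave Rheb, described below, an unadjusted p under 0.05. DESeq2 and limma-voom both gave Sh3glb1, which encodes the Beclin 1 partner endophilin B1, an unadjusted p under 0.05. It had 38.1, 40.3, 37.7 and 45 CPM in mice labelled Drp1_KO, against 36.1, 36.8, 31, 32 and 35.7 CPM in mice labelled Drp1_WT, with no overlap and a log2 fold change of 0.23 (SE 0.111; edgeR, adjusted p = 0.523). The median log2 fold change of the 87 was -0.05, and 50 of 87 (57.5%) were below 0. Atg16l2, a relative of Atg16l1, had 1.31, 0.835, 1.43 and 1.62 CPM in mice labelled Drp1_KO, against 2.6, 1.77, 2.4, 2.31 and 2.58 CPM in mice labelled Drp1_WT. The labels did not overlap, and the log2 fold change was -0.85 (SE 0.262; edgeR, adjusted p = 0.479). Pik3r4, which encodes the VPS15 subunit that holds VPS34, had 88.4, 81.1, 94.2 and 76.6 CPM in mice labelled Drp1_KO, against 123, 95.9, 97.8, 99.9 and 104 CPM in mice labelled Drp1_WT. Here too every Drp1_KO mouse lay below every Drp1_WT mouse, which held for 2 of 87 (2.3%) and for 1.29% of all tested genes. In either direction the labels did not overlap for 3 of 87 (3.45%), against 2.56% of all tested genes. The Pik3r4 log2 fold change was -0.29 (SE 0.111; edgeR, adjusted p = 0.499). Its partners among the members, Becn1 and Pik3c3, were at -0.07 and -0.11.

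Tfe3, a relative of TFEB that drives the same lysosomal genes, averaged 26.3 ± 4.89 CPM in mice labelled Drp1_KO and 36.5 ± 10.6 CPM in mice labelled Drp1_WT (SD). The ranges overlapped, and the log2 fold change was -0.47 (SE 0.203; edgeR, adjusted p = 0.508). Rhot1 encodes Miro1, a GTPase that links mitochondria to their transport motors, and averaged 170.4 ± 22.3 CPM in the Drp1_KO label and 208 ± 33.3 CPM in the Drp1_WT label (SD). Its log2 fold change was -0.29 (SE 0.133; edgeR, adjusted p = 0.509). Retreg1, an endoplasmic reticulum autophagy receptor gene, averaged 0.644 ± 0.135 CPM in the Drp1_KO label and 1.23 ± 0.487 CPM in the Drp1_WT label (SD), a log2 fold change of -0.92 (SE 0.358; edgeR, adjusted p = 0.499). Rheb, which encodes the GTPase that activates mTORC1, a brake on the ULK complex, had the next smallest p and a log2 fold change of 0.32 (SE 0.154; edgeR, adjusted p = 0.523). It had 203, 214, 154 and 277 CPM in mice labelled Drp1_KO, against 139, 175, 175, 164 and 195 CPM in mice labelled Drp1_WT, with mouse c inside the Drp1_WT range.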

How the data were processed

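The SMARTer Ultra Low Input kit turned whole lysates of single oocytes into cDNA, and Nextera XT libraries were read single-end on a HiSeq, per the labels' protocols. Picard, Subread 1.5.2 with featureCounts, STAR and the build GRCm38 are named in the submitters' processing notes. The authors deposited raw counts per Ensembl gene and oocyte. For the strand setting, the handling of multiply mapped reads and PCR copies, and the annotation, the answer is not given in the sources used here. IDs were named with GENCODE M21 (21876 of 21968 matched).

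Counts were summed per mouse, the replicate, and tested with edgeR 4.0.16 in R 4.3.3 (TMM factors, filter on low counts by label leaving 12812 genes, robust quasi-likelihood fit, Benjamini-Hochberg 0.05). SE is the log2 fold change over the root of F. Mouse levels are CPM with TMM factors; oocyte levels and marker sums use the oocyte's own total; per kilobase refers to the union of exons. The tube number is the number in the title. DESeq2 1.42.0, limma 3.58.1 (voom and trend), other scaling and filters, left-out libraries and mice, and a GC offset were alternatives. Scripts were tested on simulated counts. Totals of 3178509 to 7406895 counts limit low genes.

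The members, their roles and the 93 further pathway genes were chosen with earlier results of these data known. Values by mouse are given for the 6 members with the smallest p, the 5 highest per kilobase, the highest of each role and the 3 with the largest ratio between mice. The 6 pathway genes with the smallest p are given by mouse or, for Tfe3, Rhot1 and Retreg1, as means with SD. Mitf, Mfhas1, Sh3glb1 and Dnm1l were added after their values were seen.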

Additional observations from a re-analysis of the deposited data

Results flagged for a closer look

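A gap test (Dixon's, at 95%) was applied to the mouse levels of the 17 members and 6 pathway genes chosen by the rules above, for each label, 46 groups in all. For groups not chosen by their spread it picks about 1 in 20 by chance, and here it picked 5. Some genes, Atg9a and Pink1 among them, were chosen for their large ratio between mice. The groups also share the same mice, so the 5 cannot be set against that rate. In mice labelled Drp1_KO, mouse d was far from the other 3 mice for 2 genes: Rubcn was at 103 CPM, against 121 to 124 CPM in the others, and Bnip3l at 231 CPM, against 205 to 209 CPM. In mice labelled Drp1_WT, mouse 1 was far above the other 4 for 3 genes: Atg9a at 7.14 CPM, against 2.66 to 3.91 CPM, Pink1 at 5.09 CPM, against 1.81 to 2.46 CPM, and Pik3r4 at 123 CPM, against 95.9 to 104 CPM.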

How the results depend on the processing

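No paired analysis was possible because the mice carry letters under one label and numbers under the other. Over 24 alternatives, 0 members and 0 further pathway genes passed the adjusted threshold in each. Genes called over the whole table numbered 2, against 43 with DESeq2, 10 with limma-voom, 4 with tubes 1 to 15 only and 1 to 3 with a mouse left out. Members at an unadjusted p under 0.05 with the higher level in the Drp1_KO label numbered 1, against 0 without scaling factors, without tube 10, without Drp1_WT tubes 11 to 15, without these and tube 29, and with the GC offset (added after seeing the data), and 0 to 2 with a mouse left out. Those with the lower level numbered 1, against 0 with tubes 1 to 15 only and with the GC offset, 2 with the tube set as a term, and 0 to 4 with a mouse left out. Without Drp1_WT tubes 11 to 15 it was Wipi1 in place of Usp30. The members' median log2 fold change ran from -0.19 (no scaling factors, where the median of all genes was -0.09) to -0.02 (without mouse 1).

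Among the 23 genes chosen by the rules above, 6 had a reversed sign in some alternative, none past the threshold. Of the 12 other tested members 4 did: Map1lc3a (0.12 with the GC offset), Gabarapl2 (lowest -0.049), Bnip3 (lowest -0.053) and Lamp2 (lowest -0.071). Atg12 turned to 0.0014 with DESeq2, 0.0015 with RLE factors, 0.0082 without a filter, 0.10 with tubes 1 to 15, 0.020 without tube 10, 0.0089 without tube 10 and Drp1_WT tubes 11 to 15 and 29, and 0.0013 without the mitochondrial genome, and ran from -0.061 to 0.062 with a mouse left out. Rb1cc1 turned to -0.054 without scaling factors, -0.033 with tubes 1 to 15 and -0.13 with the GC offset (-0.0043 to 0.094 with a mouse left out). Optn turned to -0.041 with limma-voom and -0.046 with limma-trend. Without Drp1_WT tubes 11 to 15, Wipi2 was 0.011 and Lamp1 0.013; without these, tube 10 and tube 29, Wipi2 was 0.062, Lamp1 0.061 and Atg13 0.029 (Atg13 -0.35 to 0.031 with a mouse left out). The cause was not tested. Counts near 0 limit Gabarapl1, Calcoco2 and Tfeb.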
